A study of Caenorhabditis elegans with 35 samples.

Results

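The account covers 10 sarcomere genes of Caenorhabditis elegans, chosen by name: myo-1, myo-2, tni-4 and tnc-2 as the pharyngeal set and myo-3, unc-54, unc-15, unc-22, tnt-2 and tnt-3 as the body wall set. They are 10 of 17566 genes named on the array, and their 15 probe sets are among the 20806 probe sets that are not controls. The deposited gene symbols gave 9 of the genes, and the remaining one, myo-1, is listed there under its older symbol let-75 and was found through its transcript accession. Where a gene had several probe sets, the one of highest mean over all arrays stands for it.

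RNA of whole L3 larvae, washed and grown at 20 degrees, was hybridised to 35 arrays. In each of the generations F4 and F5 there were animals wild type at wdr-5 whose ancestors were wild type (+/+ from +/+), animals wild type at wdr-5 that descended from mutants (+/+ from wdr-5), and animals homozygous for the wdr-5 mutation. Every group held 6 arrays except F5 +/+ from wdr-5, with 5, and each group was split over 2 birth days: the first held replicates 1 to 3 and the second replicates 4 to 6. Mutants differ from +/+ from +/+ in the mutation and in ancestry, which that comparison cannot separate. The comparison of +/+ from wdr-5 with +/+ from +/+ sets descendants that no longer carry the mutation against animals of wild-type ancestry. The labels name neither the wdr-5 allele nor whether replicates came from separate cultures, so p-values measure the spread between these RNA samples, which may be technical.

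Muscle contracts by the sliding of myosin thick filaments along actin thin filaments, which are regulated by calcium through the troponin complex. Filament proteins differ in part between the body wall muscle, used for crawling, and the muscle of the pharynx, the pump with which the animal feeds. Each builds its thick filaments from a pair of its own myosin heavy chains. WDR-5 is a scaffold subunit of H3K4 methyltransferase complexes, which mark active promoters.

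The transcript of wdr-5.1 was low in the mutants, as the labels require, at 4.01 to 5.91 log2 in F4 and 4.32 to 5.17 in F5, against 8.30 to 8.88 on all other arrays. None of the 10 sarcomere genes lay under the 25th percentile of any array. Arrays hold whole animals, and fewer cells of a type cannot be told apart from less RNA per cell. The 6 yolk genes vit-1 to vit-6, made by the intestine of adults, were not near the bottom of these L3 arrays either, and their mean level differed between groups and days. Birth day 1 first, it ran from 8.62 to 9.39 and from 10.31 to 11.47 log2 in F4 +/+ from +/+, and from 10.60 to 11.29 and from 8.05 to 10.57 in F4 mutants. In F5 it ran from 7.0 to 8.54 and from 6.98 to 9.58 in +/+ from +/+, and from 8.09 to 11.17 and from 9.49 to 11.40 in mutants.

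The pharyngeal myosin genes myo-1 and myo-2 were lower in wdr-5 mutants of both generations. These genes encode the myosin heavy chains of pharyngeal muscle. Over both birth days myo-1 was at 68.1% of the F4 control level and 60.7% of the F5 control level, and myo-2 at a similar share. In F4 both falls were larger on birth day 1, and neither gene passed the threshold on birth day 2. The troponin C gene tnc-2 of the pharynx fell in F5, and the troponin I gene tni-4 passed the threshold in neither generation. Among body wall genes, tnt-3 was lower in both generations, myo-3 and unc-22 in F4, and unc-54, unc-15 and tnt-2 in neither.

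In F4, limma with Benjamini-Hochberg adjustment over all probe sets called 5 of the 10 genes at an adjusted p under 0.05, all lower in mutants than in +/+ from +/+. Of all probe sets, 10.3% were called in that comparison and 5.53% were lower. The 5 were 2 of the 4 pharyngeal and 3 of the 6 body wall genes. All 10 differences were below 0, as were 56.4% of all probe sets, with a median of -0.43 for the pharyngeal set and -0.25 for the body wall set against -0.021 for all probe sets.

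In F5, 4 of the 10 genes were called, all lower in mutants, where 33.1% of all probe sets were called and 16.1% were lower. The count is near the share of the whole array that was called in either direction. The 4 were 3 pharyngeal genes and 1 body wall gene. The pharyngeal median was -0.62 and the body wall median -0.093, against -0.035 for all probe sets. The sets also differed in signal. Pharyngeal genes averaged 7.40 to 8.05 log2 over all arrays, unc-22, tnt-3 and myo-3 5.86 to 7.66, and unc-54, unc-15 and tnt-2 10.98 to 11.59. Whether the signal level bears on the size of the differences was not tested. Whether the mutant difference itself changed from F4 to F5 was tested in the same fit. With limma, 0 of the 10 genes passed, where 0.00961% of probe sets were called, and 1 had an unadjusted p under 0.05.

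**Figure D1:**
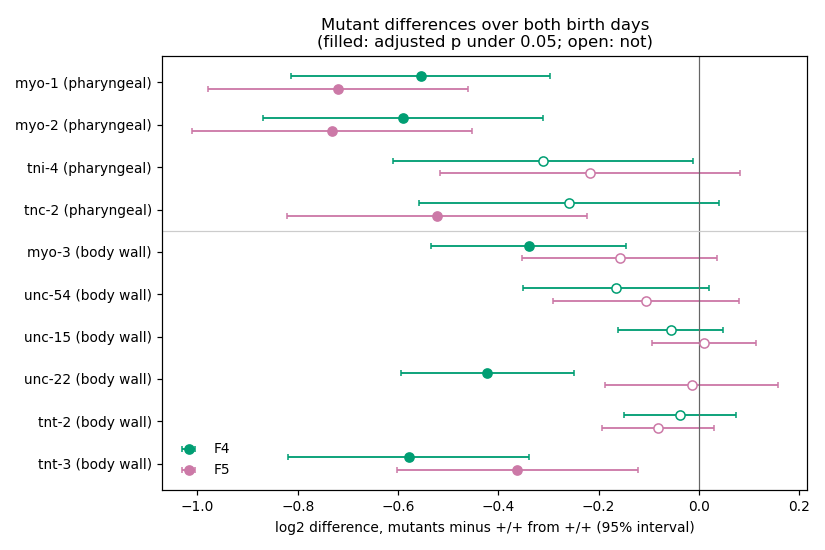
Log2 difference of mutants from +/+ from +/+ over both birth days (x axis) for each gene (y axis), in F4 (green) and F5 (pink). Points are limma estimates from 35 arrays, bars are 95% intervals, and filled points passed an adjusted p of 0.05. Both pharyngeal myosins lie between -0.55 and -0.73, while the intervals of unc-15 and tnt-2 include 0 in both generations.

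The myosin gene myo-2 was read on birth day 1 at 8.12, 8.38 and 8.05 log2 in F4 +/+ from +/+ and at 7.11, 7.14 and 7.20 in F4 mutants. On birth day 2 the controls were at 7.36, 7.43 and 7.68 and the mutants at 7.15, 7.42 and 7.45. The groups were thus far apart on birth day 1 and overlapped on birth day 2. In F5 the controls were at 7.95, 8.03 and 8.14 on birth day 1 and 7.83, 8.28 and 8.27 on birth day 2. The F5 mutants were at 6.81, 7.78 and 7.58 and at 7.15, 7.31 and 7.49, each below every control of its day. The difference over both days was -0.59 ± 0.14 (SE, adjusted p = 0.00499) for F4 mutants and -0.73 ± 0.14 (SE, adjusted p = 1.69e-04) for F5 mutants.

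The other pharyngeal myosin gene, myo-1, followed the same order. In F4 the controls were at 7.86, 8.08 and 7.52 log2 on birth day 1 and the mutants at 6.76, 7.07 and 6.86. On birth day 2 the F4 controls were at 7.18, 7.42 and 7.52 and the mutants at 7.15, 7.23 and 7.19, so that only 1 mutant array lay below all controls of that day. The F5 controls were at 7.32, 7.63 and 7.76 on birth day 1 and 7.49, 7.62 and 7.78 on birth day 2. All 6 F5 mutant arrays lay below them, at 6.40, 7.23 and 7.13 and at 6.74, 6.75 and 7.03. The differences were -0.55 ± 0.13 (SE, adjusted p = 0.00438) for F4 mutants and -0.72 ± 0.13 (SE, adjusted p = 8.33e-05) for F5 mutants. Both myosin calls held in both generations when any single array was left out.

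The gene tnc-2 encodes the calcium-binding troponin C of pharyngeal muscle. Its F4 control arrays were at 8.02, 8.02 and 7.87 log2 on birth day 1 and 7.25, 7.49 and 7.64 on birth day 2, and the F4 mutants at 7.31, 7.24 and 7.30 and at 7.35, 7.69 and 7.85. Mutants were below all controls on birth day 1, while on birth day 2 2 of the 3 were above all of them. The F4 difference was -0.26 ± 0.15 (SE, adjusted p = 0.252). In F5 the controls were at 8.01, 8.07 and 8.14 and at 7.76, 7.48 and 7.77. The F5 mutants split into arrays at 7.04, 7.02 and 6.84 (replicates 1, 4 and 5) and arrays at 7.68, 7.73 and 7.80 (replicates 2, 3 and 6). The F5 difference was -0.52 ± 0.15 (SE, adjusted p = 0.00699), and replicate 6 lay above every control of its day.

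The inhibitory subunit troponin I of the pharynx, encoded by tni-4, passed in neither generation. F4 controls were at 8.32, 8.72 and 8.29 log2 and at 7.88, 7.84 and 8.23 on the birth days, and F4 mutants at 7.75, 7.89 and 7.85 and at 7.59, 8.25 and 8.08. F5 controls were at 8.21, 8.45 and 7.94 and at 8.0, 8.04 and 8.01, and F5 mutants at 7.64, 8.09 and 8.26 and at 7.51, 7.57 and 8.27. The groups overlapped except on F4 birth day 1, and the low F5 mutant arrays were the same replicates 1, 4 and 5 as for tnc-2. The differences were -0.31 ± 0.15 (SE, adjusted p = 0.167) for F4 mutants and -0.22 ± 0.15 (SE, adjusted p = 0.256) for F5 mutants.

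**Figure D2:**
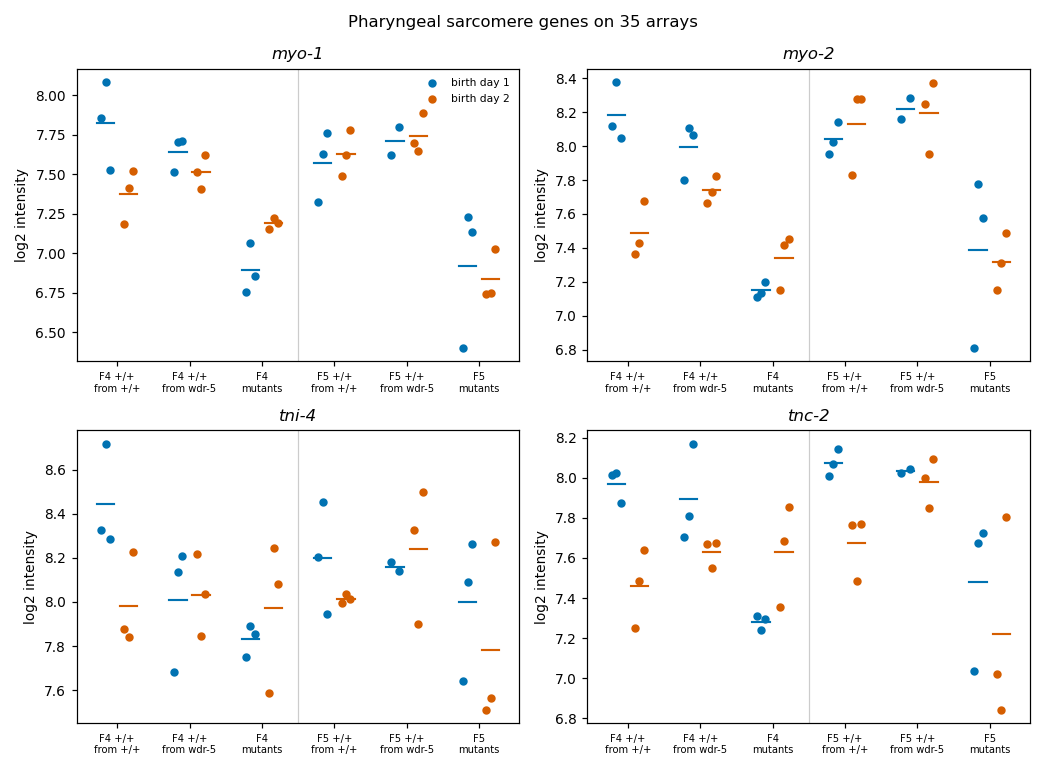
Deposited log2 intensity (y axis) of the 4 pharyngeal genes on each of the 35 arrays (points) by group (x axis), coloured by birth day, with lines at the mean of each group and day. For myo-1 and myo-2 every F5 mutant array lies below the F5 +/+ from +/+ arrays of its day, and for tnc-2 the F5 mutants split into arrays at 6.84 to 7.04 and arrays at 7.68 to 7.80.

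Those 3 F5 mutant arrays also stood apart in genes outside the sarcomere. Replicates 1, 4 and 5 had yolk means of 11.17, 10.23 and 11.40 log2, and replicates 2, 3 and 6 had 9.30, 8.09 and 9.49. The mean of 6 genes of the pharyngeal gland cells, phat-1 to phat-6, was 6.61, 6.78 and 6.73 in the former and 7.30, 7.44 and 7.23 in the latter. A fit without these 3 arrays, chosen after the data were seen, called 2 of the 10 genes where 16.6% of probe sets were called. These were myo-1 (-0.47 ± 0.14, SE, adjusted p = 0.0175) and myo-2 (-0.47 ± 0.15, SE, adjusted p = 0.0257). The same 3 arrays were also the lowest F5 mutants for each of myo-1, myo-2, tni-4 and tnc-2, so leaving them out raises each of these mutant means. Nothing is read from the lost call for tnc-2, and the myosin calls there rest on mutant replicates 2, 3 and 6. With the yolk level of each array as a covariate, also added later, F5 mutants had 2 of the 10 genes called where 13.3% of probe sets were called. They were again myo-1 (-0.45 ± 0.12, SE, adjusted p = 0.00814) and myo-2 (-0.41 ± 0.12, SE, adjusted p = 0.0164). The yolk genes themselves rose in F5 mutants, so this fit cannot separate the yolk level from the mutation. In F4 the covariate left 5 genes called, where 15% of probe sets were called, with myo-2 at -0.58 ± 0.10 (SE, adjusted p = 1.67e-04).

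Among body wall genes, tnt-3 encodes a troponin T, the subunit that ties troponin to tropomyosin. Its F4 controls were at 7.25, 7.30 and 7.48 log2 on birth day 1 and 7.70, 7.36 and 7.49 on birth day 2, and its F4 mutants at 6.83, 6.59 and 6.94 and at 7.04, 6.61 and 7.10. All 6 F4 mutant arrays were below every control of their day, and the difference was -0.58 ± 0.12 (SE, adjusted p = 0.00148). The F5 controls were at 7.44, 7.46 and 7.64 and at 7.34, 7.24 and 7.53. The F5 mutants were at 6.59, 7.07 and 7.09 and at 7.01, 7.14 and 7.58, with replicate 6 above all controls of its day. The F5 difference was -0.36 ± 0.12 (SE, adjusted p = 0.0185), and it no longer passed without mutant replicate 1 (-0.26, adjusted p = 0.0818) or control replicate 3 (-0.31, adjusted p = 0.0544). The other probe set of tnt-3 was lower in both generations as well, by -0.60 ± 0.10 (SE, adjusted p = 1.65e-04) for F4 mutants and -0.45 ± 0.10 (SE, adjusted p = 0.00108) for F5 mutants.

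The second troponin T gene of the set, tnt-2, differed little. Its arrays ran from 11.42 to 11.80 log2 over the F4 groups and from 11.26 to 11.79 over the F5 groups, with mutants and controls overlapping on each day except F5 birth day 1, where the mutants at 11.26, 11.56 and 11.56 were just below the controls at 11.57 to 11.70. The mutant differences were -0.038 ± 0.055 (SE, adjusted p = 0.686) for F4 mutants and -0.081 ± 0.055 (SE, adjusted p = 0.255) for F5 mutants. Their 95% intervals, -0.15 to 0.073 and -0.19 to 0.030, leave out falls of the size seen for tnt-3 in the same generation. The tnt-2 signal was the brighter, at a mean of 11.59 log2 over all arrays against 7.30 for tnt-3.

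The myosin heavy chain A gene myo-3, whose product occupies the centre of the body wall thick filament, was lower in F4 mutants. Controls were at 7.78, 7.82 and 7.80 log2 on birth day 1 and 7.60, 7.61 and 7.84 on birth day 2, and mutants at 7.19, 7.22 and 7.62 and at 7.49, 7.47 and 7.43. Every F4 mutant array was below all controls of its day. The difference was -0.34 ± 0.095 (SE, adjusted p = 0.0200), which did not pass without mutant replicate 1 (-0.29, adjusted p = 0.0636) or 2 (-0.30, adjusted p = 0.0581). In F5 the controls were at 7.86, 7.75 and 7.61 and at 7.90, 7.32 and 7.67. The F5 mutants, at 7.22, 7.62 and 7.53 and at 7.65, 7.31 and 7.82, overlapped them on both days, and the difference was -0.16 ± 0.095 (SE, adjusted p = 0.202). That comparison passed without control replicate 5 (-0.24, adjusted p = 0.0486).

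The major body wall myosin heavy chain B is encoded by unc-54. F4 controls were at 10.89, 10.98 and 10.89 log2 and at 10.84, 10.78 and 11.01 on the birth days. F4 mutants were tightly grouped at 10.54, 10.53 and 10.54 on birth day 1, below all controls, and were at 10.95, 10.88 and 10.97 on birth day 2, among them. The difference over both days was -0.16 ± 0.091 (SE, adjusted p = 0.238). In F5 the controls were at 10.92, 10.97 and 11.06 and at 10.99, 11.44 and 11.36 and the mutants at 10.99, 11.11 and 11.11 and at 11.07, 11.22 and 10.61. They overlapped on both days, with a difference of -0.10 ± 0.091 (SE, adjusted p = 0.385).

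Paramyosin, the core protein of thick filaments in both muscle systems, is encoded by unc-15. In F4 its controls were at 10.99, 11.06 and 10.96 log2 and at 11.09, 11.07 and 11.10, and F4 mutants at 10.82, 10.76 and 10.90 and at 11.19, 11.06 and 11.19. Mutants were below the controls on birth day 1 and spread to both sides of them on birth day 2. F5 controls were at 10.99, 11.15 and 11.20 and at 11.22, 11.20 and 11.29, and F5 mutants at 11.08, 11.25 and 11.22 and at 11.20, 11.19 and 11.17, overlapping on both days. The differences were -0.056 ± 0.051 (SE, adjusted p = 0.498) for F4 mutants and 0.010 ± 0.051 (SE, adjusted p = 0.889) for F5 mutants. The other probe set of unc-15 gave -0.19 ± 0.077 (SE, adjusted p = 0.111) for F4 mutants and -0.039 ± 0.077 (SE, adjusted p = 0.719) for F5 mutants, so neither was called.

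Twitchin, a giant kinase of the thick filament that regulates muscle activity, is encoded by unc-22. F4 controls were at 5.97, 5.96 and 5.66 log2 and at 5.84, 6.04 and 6.23, and F4 mutants at 5.12, 5.47 and 5.49 and at 5.61, 5.74 and 5.72, all below the controls of their day. The F4 difference was -0.42 ± 0.084 (SE, adjusted p = 0.00120), and that of the other distinct probe set -0.33 ± 0.10 (SE, adjusted p = 0.0337). In F5 the controls were at 6.09, 6.07 and 5.95 and at 5.71, 5.88 and 5.84 and the mutants at 6.13, 6.18 and 6.07 and at 5.64, 5.57 and 5.88. These overlapped on both days, with a difference of -0.014 ± 0.084 (SE, adjusted p = 0.909) and of 0.14 ± 0.10 (SE, adjusted p = 0.308) by the other probe set. The F5 minus F4 contrast of the mutant difference had its smallest p among the 10 at this gene, 0.41 ± 0.12 (SE, adjusted p = 0.129), and did not pass.

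**Figure D3:**
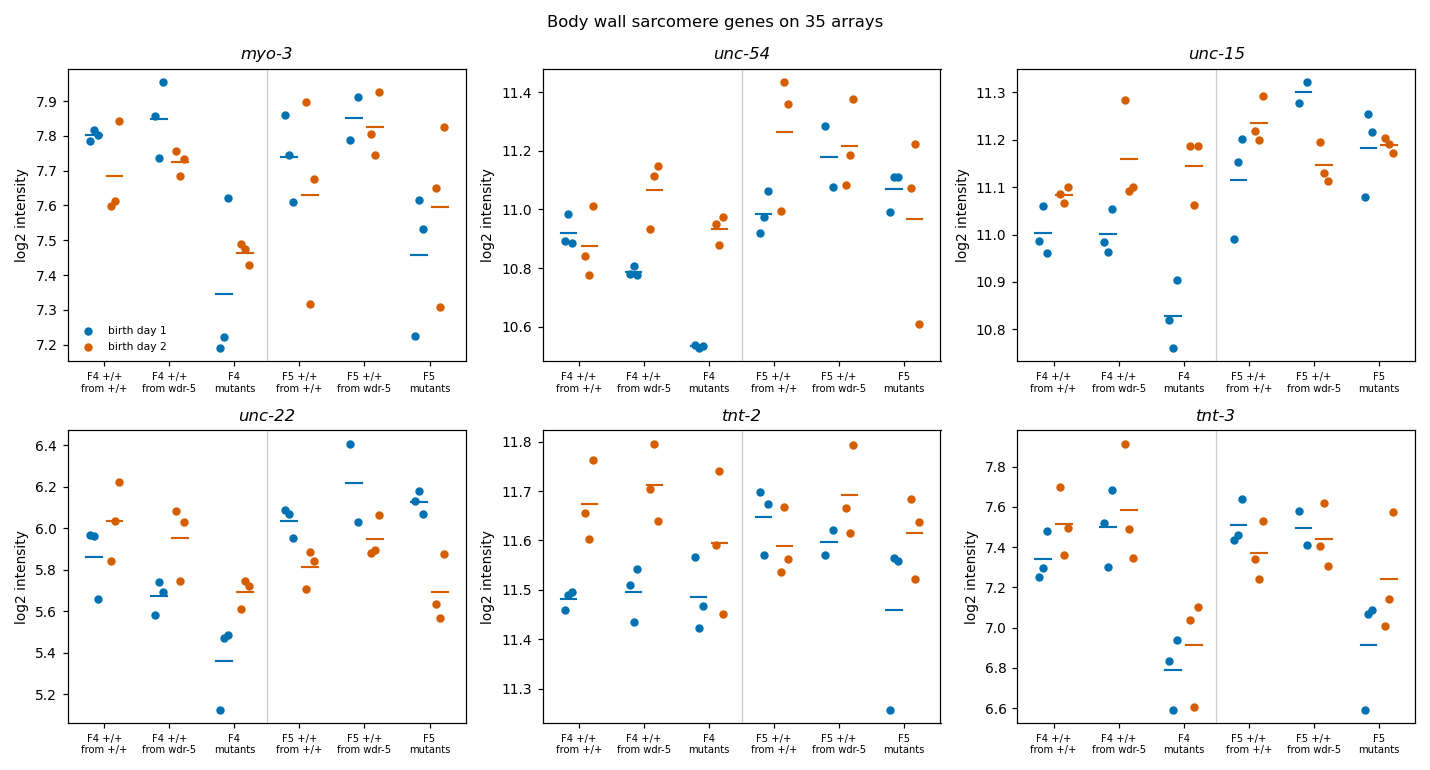
Deposited log2 intensity (y axis) of the 6 body wall genes on each of the 35 arrays (points) by group (x axis), coloured by birth day, with lines at the mean of each group and day. Every F4 mutant array of myo-3, unc-22 and tnt-3 lies below the F4 +/+ from +/+ arrays of its day, and the y axes span different ranges.

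The 2 birth days differed in what they showed for F4 mutants against +/+ from +/+. On birth day 1, fitted with 12 separate means, 9 of the 10 genes were lower in mutants, where 21% of all probe sets were lower. The fall was -1.03 ± 0.17 (SE, adjusted p = 3.95e-05) for myo-2, -0.93 ± 0.16 (SE, adjusted p = 7.66e-05) for myo-1, -0.69 ± 0.18 (SE, adjusted p = 0.00382) for tnc-2 and -0.61 ± 0.20 (SE, adjusted p = 0.0169) for tni-4. Body wall genes fell by less, from -0.17 for unc-15 to -0.56 for tnt-3, and tnt-2 differed by 0.0043 ± 0.075 (SE, adjusted p = 0.971). On birth day 2, only tnt-3 was called (-0.60 ± 0.16, SE, adjusted p = 0.0116), where 6.08% of probe sets were lower, and myo-2 differed by -0.15 ± 0.17 (SE, adjusted p = 0.679). Set against +/+ from wdr-5, all 3 mutant arrays of birth day 2 were below every control of that day for myo-1 and for myo-2. For tnc-2, 2 of the 3 were above every such control, and limma called 0 of the 4 pharyngeal genes there. At an unadjusted p under 0.05 in that comparison were 3 of the 10 genes and 4001 of all 20806 probe sets.

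The change of the F4 mutant difference from +/+ from +/+ between birth day 1 and birth day 2 was itself tested. It passed for myo-2 (0.88 ± 0.23, SE, adjusted p = 0.00517), tnc-2 (0.86 ± 0.25, SE, adjusted p = 0.0106), myo-1 (0.74 ± 0.23, SE, adjusted p = 0.0127), unc-54 (0.45 ± 0.16, SE, adjusted p = 0.0280) and unc-15 (0.24 ± 0.086, SE, adjusted p = 0.0358). These 5 of 10 genes stand beside 17.9% of all probe sets called in that direction. Against F4 +/+ from wdr-5, limma called this change for 0 of the 10 genes. At an unadjusted p under 0.05 were 1 of the 10 genes and 3935 of all 20806 probe sets. The pharyngeal median of the change was then 0.43, against 0.80 with +/+ from +/+. The mean of myo-2 in F4 +/+ from +/+ was 8.18 log2 on the first day and 7.49 on the second, and in mutants it was 7.15 and 7.34. Since the days appear to have been normalized apart, which group changed cannot be read from these levels.

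Yolk and pharyngeal gland levels moved with the same split of F4 arrays. The median mutant difference of the 6 yolk genes was 1.80 on birth day 1, with 3 members risen, and -1.84 on birth day 2, with 1 fallen. The gland genes had medians of -0.53, with 3 of 6 fallen, and 0.13, with none of 6 called by limma and 3 at an unadjusted p under 0.05. Their mean ran from 7.40 to 7.44 log2 in F4 +/+ from +/+ on birth day 1 and from 6.67 to 6.93 on birth day 2, and from 6.70 to 7.05 and 6.85 to 7.07 in mutants. With the yolk level as a covariate, limma called the change between days for 0 of the 10 genes, where 7.79% of probe sets were called and 1 gene had an unadjusted p under 0.05. For myo-2 that change was then 0.40 ± 0.24 (SE, adjusted p = 0.317). The yolk difference itself changed sign between the days, so this fit cannot tell the birth day from the yolk level. Nothing is read from the lost calls.

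In F5 mutants the birth days gave similar differences for the pharyngeal myosins. On birth day 1, 4 genes were lower, where 12.4% of probe sets were, namely myo-1 (-0.65 ± 0.16, SE, adjusted p = 0.00341), myo-2 (-0.65 ± 0.17, SE, adjusted p = 0.00439), tnc-2 (-0.59 ± 0.18, SE, adjusted p = 0.0145) and tnt-3 (-0.60 ± 0.16, SE, adjusted p = 0.00741). On birth day 2, 2 genes were lower, where 7.83% of probe sets were, myo-1 (-0.79 ± 0.16, SE, adjusted p = 9.40e-04) and myo-2 (-0.81 ± 0.17, SE, adjusted p = 0.00109). The change between the days passed limma's threshold for 0 of the 10 genes, where 0.0721% of probe sets were called, and 1 gene, unc-54, had an unadjusted p under 0.05. For tnt-3 the change was 0.47 ± 0.23 (SE, adjusted p = 0.558).

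**Figure D4:**
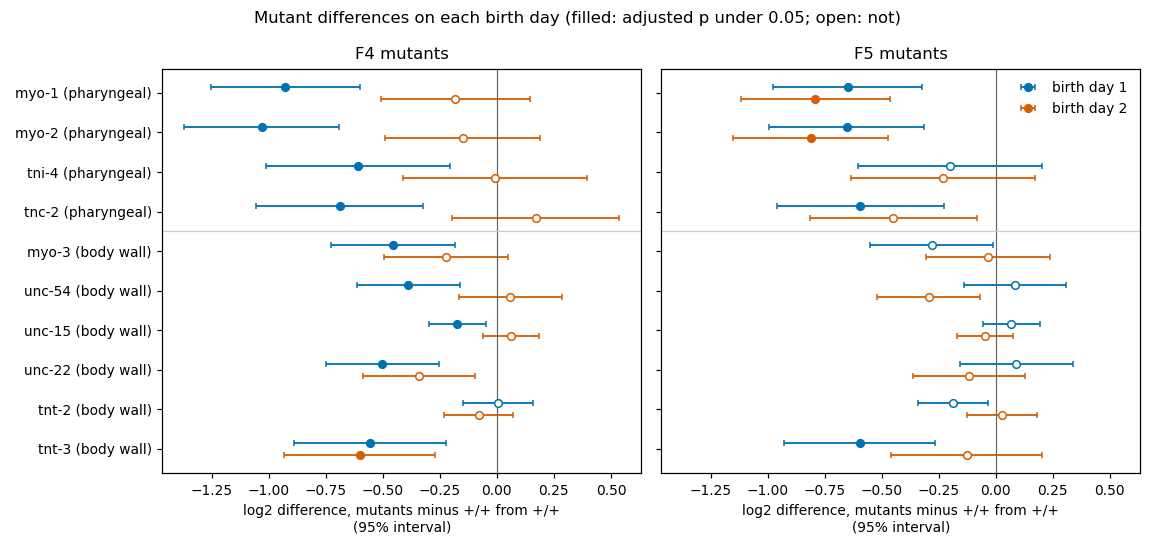
Log2 difference of mutants from +/+ from +/+ (x axis) for each gene (y axis) on birth day 1 (blue) and birth day 2 (orange), in F4 (left) and F5 (right). Points are limma estimates with 95% intervals, filled where the adjusted p was under 0.05. In F4 the 4 pharyngeal genes lie between -1.03 and -0.61 on birth day 1, and their intervals include 0 on birth day 2.

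No sarcomere gene was called in wild-type descendants of wdr-5 mutants. In F4 +/+ from wdr-5, limma called 0 of the 10 genes, as it called 0% of all probe sets, and over both days none of the 10 had an unadjusted p under 0.05. For myo-2, these F4 arrays were at 7.80, 8.11 and 8.07 log2 on birth day 1 and 7.67, 7.73 and 7.83 on birth day 2, overlapping the controls on both days. The difference was 0.031 ± 0.14 (SE), with a 95% interval of -0.25 to 0.31. For myo-1 it was -0.018 ± 0.13 (interval -0.28 to 0.24), for tnt-3 0.11 ± 0.12 (interval -0.13 to 0.35) and for unc-22 -0.13 ± 0.084 (interval -0.31 to 0.037). The widest difference was that of tni-4, -0.19 ± 0.15 (interval -0.49 to 0.11), and adjusted p was 0.999 for every gene. On birth day 1, 62.5% of all probe sets were lower in these F4 arrays, and 3948 of 20806 had an unadjusted p under 0.05. The share of probe sets without overlap was not counted. All 3 of these F4 arrays were below every control of that day for tni-4 and for unc-54. For tni-4 they were at 7.68, 8.13 and 8.21 log2, a difference of -0.43 ± 0.20 (SE, adjusted p = 0.232), and tni-4 was the 1 gene of the 10 with an unadjusted p under 0.05 (0.0361) in F4 on a single day. For unc-54 they were at 10.78, 10.81 and 10.78, a difference of -0.13 ± 0.11 (SE, adjusted p = 0.519). Both differences were above 0 on birth day 2, by 0.052 for tni-4 and 0.19 for unc-54, and neither was called.

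In F5 +/+ from wdr-5 all 10 differences were above 0, between 0.018 for tnt-3 and 0.16 for unc-22, and limma again called 0 of 10, with 0% of all probe sets called and none of the 10 at an unadjusted p under 0.05. Of all probe sets 43.7% were lower in this comparison. The myo-2 arrays were at 8.16 and 8.28 log2 on birth day 1 and 8.25, 7.96 and 8.37 on birth day 2. Both arrays of birth day 1 were above the controls of that day, and those of birth day 2 overlapped them. All 3 of the latter were above every control for tnc-2 and below every control for unc-15, with neither called. On that day 40.0% of all probe sets were lower, and the share without overlap was not counted. The difference over both days was 0.12 ± 0.14 (interval -0.17 to 0.41) for myo-2 and 0.13 ± 0.13 (interval -0.14 to 0.40) for myo-1.

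Set against +/+ from wdr-5 in place of +/+ from +/+, the mutants were lower in 5 genes of each generation. The 2 comparisons share the mutant arrays and so are not independent. In F4, 5 of 10 genes fell, where 5.95% of probe sets did: myo-1 (-0.54 ± 0.13, SE, adjusted p = 0.00447), myo-2 (-0.62 ± 0.14, SE, adjusted p = 0.00250), myo-3 (-0.38 ± 0.095, SE, adjusted p = 0.00687), unc-22 (-0.29 ± 0.084, SE, adjusted p = 0.0228) and tnt-3 (-0.69 ± 0.12, SE, adjusted p = 1.55e-04). The unc-22 call was lost without mutant replicate 1 (-0.23, adjusted p = 0.0807), +/+ from wdr-5 replicate 4 (-0.26, adjusted p = 0.0596) or replicate 6 (-0.27, adjusted p = 0.0562), and its other probe set did not pass (-0.23 ± 0.10, SE, adjusted p = 0.139). The other probe set of unc-15 was lower here (-0.27 ± 0.077, SE, adjusted p = 0.0164), while the one of highest mean was not called (-0.093 ± 0.051, SE, adjusted p = 0.268).

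In F5, 5 of 10 genes fell against +/+ from wdr-5, where 15.4% of probe sets did. The difference was -0.85 ± 0.13 (SE, adjusted p = 2.57e-05) for myo-1, -0.85 ± 0.14 (SE, adjusted p = 6.88e-05) for myo-2 and -0.68 ± 0.15 (SE, adjusted p = 0.00155) for tnc-2. For myo-3 it was -0.31 ± 0.10 (SE, adjusted p = 0.0198) and for tnt-3 -0.38 ± 0.12 (SE, adjusted p = 0.0206). Leaving out 1 of several single arrays took myo-3 to an adjusted p of 0.0578 to 0.0672 and tnt-3 to 0.0533 to 0.0711. The call for myo-3 was lost without +/+ from wdr-5 replicate 2 or mutant replicates 1 or 5, and that for tnt-3 without +/+ from wdr-5 replicates 1 or 5 or mutant replicate 1. Without mutant replicate 6, tni-4 passed as well (-0.43, adjusted p = 0.0313).

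Levels of F5 were set against those of F4 within each kind of animal. The arrays of birth day 1 share exact values within a generation and not between generations, so F4 and F5 appear to have been normalized apart on that day, and birth day 2, where they appear to have been normalized together, is the more comparable. Over both days limma called 0 of 10 genes in +/+ from +/+, where 21.7% of probe sets were called, and 2 of 10 had an unadjusted p under 0.05. In +/+ from wdr-5, 2 were higher in F5, where 20% of probe sets were, unc-54 (0.27 ± 0.096, SE, adjusted p = 0.0392) and unc-22 (0.27 ± 0.089, SE, adjusted p = 0.0243). In mutants 3 were higher, where 13.5% of probe sets were, unc-22 (0.38 ± 0.084, SE, adjusted p = 0.00216), unc-15 (0.20 ± 0.051, SE, adjusted p = 0.00745) and unc-54 (0.29 ± 0.091, SE, adjusted p = 0.0274).

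In the fit over all arrays of 12 means, 1 for each group and birth day, unc-22 in mutants on birth day 2 differed by 0.00098 ± 0.12 (SE, adjusted p = 0.996) between the generations, against 0.77 ± 0.12 (SE, adjusted p = 2.38e-05) on birth day 1, and unc-54 and unc-15 by 0.034 ± 0.11 and 0.043 ± 0.061. With limma 0 of 10 genes passed in mutants on birth day 2, where 18.1% of probe sets were called and 2 genes had an unadjusted p under 0.05. In +/+ from wdr-5 0 of 10 passed, where 3.29% of probe sets were called and 1 gene had an unadjusted p under 0.05. In +/+ from +/+ 2 of 10 were higher in F5 on that day, where 8.46% of probe sets were. They were myo-2 (0.64 ± 0.17, SE, adjusted p = 0.00829) and unc-54 (0.39 ± 0.11, SE, adjusted p = 0.0151).

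The pharyngeal genes varied together between arrays of the same group and day. After each group and day mean was taken off, the 6 pairs of pharyngeal genes had Pearson r from 0.59 to 0.85 over the 35 arrays, with a median of 0.67. The closest pair was myo-1 and myo-2 (0.85), followed by tni-4 and tnc-2 (0.76). The 15 pairs of body wall genes had a median r of 0.060, from -0.42 for myo-3 and unc-54 to 0.63 for unc-15 and tnt-3. The 24 mixed pairs had a median of 0.33, with tnc-2 and myo-3 highest at 0.62. These values are a description of arrays that share their normalization. The F5 mutants, with the split of arrays given above for pharyngeal genes, are among the 35, and r was not computed without them.

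**Figure D5:**
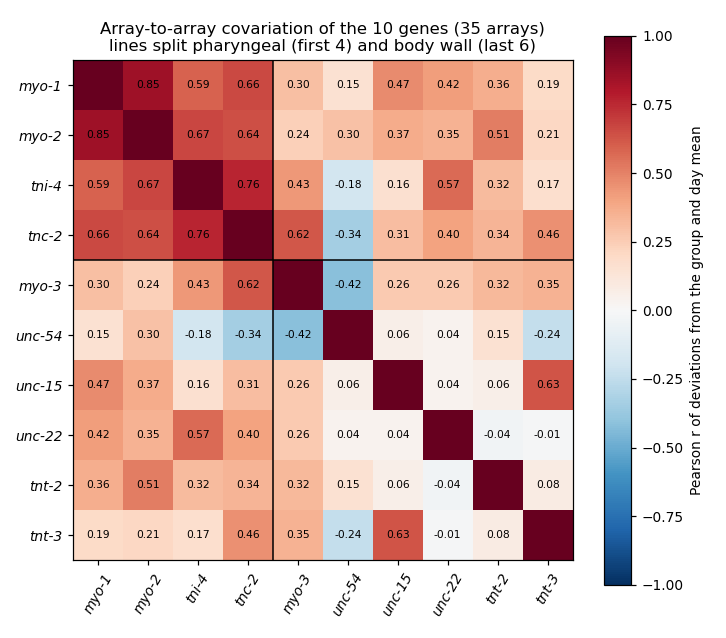
Pearson r (colour and number) between the deviations of each pair of genes from the mean of their group and birth day, over 35 arrays, with both axes listing the 10 genes. The block of the 4 pharyngeal genes holds values from 0.59 to 0.85, and the block of the 6 body wall genes runs from -0.42 to 0.63.

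Deviations of the 10 genes were also set against those of the gland and yolk means, 20 relations in all, with permutation of arrays within group and day. Two-sided permutation p-values were adjusted over the 20. The relation passed for tnc-2 with the gland (r = 0.77, adjusted p = 0.0418, Spearman's rho = 0.61, adjusted p = 0.0454) and stayed at r = 0.72 without the 2 arrays farthest from the median. Within F4 and F5 birth day 1 its r was 0.42 and 0.97, and within birth day 2 it was 0.78 and 0.80. For myo-2 with the gland r was 0.72 (adjusted p = 0.0418, rho = 0.59, adjusted p = 0.0454, permutation) and 0.55 without the 2 farthest arrays, and 0.16 within F4 birth day 1 against 0.61 to 0.89 in the other 3 sets. Gland deviations ran from -0.51 to 0.32 in F5 mutants and from -0.20 to 0.16 in all other groups. The F5 mutants, with the split of arrays given above, thus weigh most in both gland relations, which were not computed without them. For unc-15 with the yolk mean r was -0.54 (adjusted p = 0.0418, rho = -0.54, adjusted p = 0.0454, permutation), -0.49 without the 2 farthest arrays, and between -0.85 and -0.26 within the 4 sets. The relation with yolk did not pass for myo-2 (r = -0.59, adjusted p = 0.0721, permutation), myo-1 (r = -0.51, adjusted p = 0.0721, permutation) or unc-54 (r = -0.045, adjusted p = 0.867, permutation).

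Genes outside the 10 whose values tracked the sets most closely were found by the highest Pearson r over the 35 arrays, each birth day centred on its mean and with no test. For the mean of the pharyngeal set they were F13C5.5 (r = 0.967), tnt-4, the troponin T of the pharynx (0.931), the calponin-like gene clik-2 (0.926), the gland gene phat-4 (0.923) and vap-1 (0.922). Their F5 mutant differences ran from -0.97 for F13C5.5 to -0.36 for tnt-4. For the mean of the body wall set the closest were vha-6, a subunit gene of the intestinal proton pump (0.884), the aspartyl protease gene asp-5 (0.875), the C-type lectin gene clec-64 (0.870), math-4 (0.867) and nhl-1 (0.861). None of these 5 is a sarcomere gene. Centring by birth day leaves the differences between groups in these r values. It also leaves any offset between F4 and F5 on birth day 1, which appear to have been normalized apart.

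The wider muscle apparatus was described with 66 other genes in 8 lists. In F4 mutants 1 rose, 3 fell and 62 were not called against +/+ from +/+, or 6.06% called, below the 10.3% of all probe sets. In F5 mutants 2 rose, 18 fell and 46 were not called, or 30.3% called, near the 33.1% of all probe sets. The share that fell was 27.3%, where 16.1% of all probe sets were lower. The median difference was -0.035 in F4 and -0.13 in F5. On birth day 1 of F4, 26 fell, or 39.4%, where 21% of all probe sets were lower, and 2 rose, where 15.6% were higher. On birth day 2 none fell, where 6.08% of probe sets were lower, and 6 rose, where 7.29% were higher. The counts of single lists below, over both days, stand beside 5.53% of all probe sets lower in F4 and 16.1% lower in F5.

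None of the 4 other thick filament genes (myo-5 and the myosin light chain genes mlc-1, mlc-2 and mlc-3) was called by limma in either generation, with 0 and 1 at an unadjusted p under 0.05 and medians of -0.053 and -0.089. Of 15 other thin filament genes, 1 rose in F4, the troponin I gene tni-3 (0.23 ± 0.067, SE, adjusted p = 0.0241), and 5 fell in F5. The 4 of smallest p there were the tropomodulin gene unc-94 (-0.36 ± 0.099, SE), the troponin I gene tni-1 (-0.39 ± 0.12, SE), unc-78, which helps to take actin filaments apart (-0.31 ± 0.093, SE), and tnt-4 (-0.36 ± 0.13, SE). The actin genes act-1 to act-4 were not called, and they are so alike that their probe sets may not tell them apart.

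Genes that anchor the filaments at dense bodies and M-lines, the attachment sites of the muscle cell membrane, had 2 falls among 17 in F4, unc-98 (-0.30 ± 0.078, SE) and the zyxin gene zyx-1 (-0.19 ± 0.057, SE), and 5 in F5. In F5 these included the PDZ and LIM domain gene alp-1 (-0.52 ± 0.096, SE), unc-96 (-0.50 ± 0.096, SE), unc-98 (-0.38 ± 0.078, SE) and unc-97 (-0.26 ± 0.067, SE). Of the 4 other giant and M-line protein genes, dim-1 fell in F5 (-0.21 ± 0.044, SE) and limma called none in F4, where 1 had an unadjusted p under 0.05. Of 14 genes of excitation and calcium handling, limma called 0 in F4, with 1 at an unadjusted p under 0.05, and 3 fell in F5, the acetylcholine receptor subunit genes lev-1 (-0.44 ± 0.12, SE) and lev-8 (-0.21 ± 0.082, SE) and the potassium channel gene slo-1 (-0.25 ± 0.090, SE).

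Of 4 genes of chaperones and their partners, the myosin chaperone gene unc-45 fell in F4 (-0.21 ± 0.067, SE, adjusted p = 0.0374), while in F5 the ubiquitin ligase gene chn-1 (0.44 ± 0.10, SE, adjusted p = 0.00158) and daf-21, which encodes Hsp90 (0.20 ± 0.049, SE, adjusted p = 0.00289), rose. Among regulators, 0 of 3 body wall muscle and 0 of 5 pharynx genes were called by limma in F4, with 1 and 2 at an unadjusted p under 0.05. In F5 the muscle factors unc-120 (-0.44 ± 0.11, SE) and hlh-1, the MyoD of the worm (-0.29 ± 0.11, SE), and the pharynx factors ceh-34 (-0.57 ± 0.11, SE) and pha-4, the FoxA factor of the pharynx (-0.41 ± 0.099, SE), fell.

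Markers of other cells moved in the same F5 comparison, where 33.1% of all probe sets were called and 16.1% were lower. All 6 yolk genes rose, with a median difference of 1.99, 5 of 7 hypodermis and moulting genes fell (median -0.50), 4 of 5 germline genes rose (median 0.37) and 3 of 5 intestine genes fell (median -0.30). Of 5 sperm genes 4 rose, of 5 neuron genes 1 rose and of 8 proteasome and housekeeping genes 4 rose. Of 6 pharyngeal gland genes 3 fell, phat-4 most (-0.84 ± 0.16, SE). In F4, where 10.3% of all probe sets were called, limma called 0 of 6 yolk, 1 of 7 hypodermis and moulting and 0 of 5 germline genes. It called 2 of 5 intestine and 2 of 6 gland genes, counting either direction. At an unadjusted p under 0.05 were 0 yolk genes and 1 germline gene. Also in F4, 2 of 5 sperm genes rose, 1 of 5 neuron genes rose, and of 8 proteasome and housekeeping genes 1 rose and 1 fell. The sperm mean on birth day 1 of F4 was 5.38 to 5.79 log2 in +/+ from +/+ and 6.32 to 6.44 in mutants. In F4 phat-4 differed by -0.71 ± 0.16 (SE, adjusted p = 0.00362). Their part in the sarcomere differences was not tested.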

How the data were processed

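The deposited values are log2 intensities, which the submitters' processing notes credit to RMA, and base 2 was read from their range. Per the file headers, 1 table holds each birth day. Arrays share exact values within F4 birth day 1, within F5 birth day 1 and across birth day 2, so these were taken as 3 normalization sets. Array medians were 5.35 to 5.50 log2. The number of arrays limits precision. The 77 control probe sets were left out and 20806 tested. The model (limma 3.58.1, R 4.3.3; lmFit, then eBayes with a trend) had 6 group means and birth day within generation (27 residual degrees of freedom), or 12 means of group and day (23). Tests were two-sided, adjusted by Benjamini-Hochberg over all probe sets, threshold 0.05. In simulated F4 data the fit recovered 92% of changes of 0.5 log2 and 100% of changes of 1 log2. Noise there was independent between arrays and probe sets, and no change differed between birth days, unlike in these data. Relations used 100000 permutations. The members and lists were chosen with earlier results of these data known. The text names the 10 genes, at most 4 called genes per list and comparison by smallest p, and the 5 genes most like each set. Alternatives covered normalization, weights, filters, days and left-out arrays.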

Additional observations from a re-analysis of the deposited data

Results flagged for a closer look

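Among 60 groups of 5 or 6 arrays tested for an outlying array, 3 had one, about the 1 in 20 that chance flags. F4 +/+ from wdr-5 replicate 3 read tnc-2 at 8.17 log2, above the other 5 at 7.55 to 7.81. F5 +/+ from +/+ replicate 5 read tnc-2 at 7.48, below the others at 7.76 to 8.14. F5 mutant replicate 6 read unc-54 at 10.61, below the others at 10.99 to 11.22. Those groups hold both birth days, whose values appear to have been normalized apart. The test was run after the fitted birth day effect of each generation was taken off, while the values given here are as deposited.

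The F4 mutant difference from +/+ from +/+ changed between the birth days, by limma's test of that change, in 5 genes: myo-2 (0.88, adjusted p = 0.00517), tnc-2 (0.86, adjusted p = 0.0106), myo-1 (0.74, adjusted p = 0.0127), unc-54 (0.45, adjusted p = 0.0280) and unc-15 (0.24, adjusted p = 0.0358). None of the 5 passed with the yolk level of each array as a covariate. The yolk difference changed sign between the same days, so nothing is read from that loss.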

How the results depend on the processing

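No result changed direction past its threshold. With only the arrays of birth day 1 in the fit, which is not the fit of 12 means over all arrays, 9 sarcomere genes were called in F4 mutants and 1 in the contrast of generations; with only those of birth day 2, 1 in F4 and 2 in F5 mutants, 1 and 3 against +/+ from wdr-5, 1, 0 and 1 in F5 against F4 (+/+ from +/+, +/+ from wdr-5, mutants) and 2 in the contrast of generations. Without a birth day term 3 were called in F4 mutants and 0 and 0 in F5 against F4 (+/+ from wdr-5, mutants). F5 against F4 also moved under quantile normalization (0 in +/+ from wdr-5, 1 in mutants), above the median (1 in +/+ from +/+), with mean probe sets (1) and with array weights (3 in +/+ from +/+, 4 in +/+ from wdr-5), weights also leaving 3 changes between days in F4 mutants. With only the groups compared in the fit, 3 were called in F4 mutants, 3 in F5 mutants against +/+ from wdr-5, and 3 and 5 in F5 against F4 (+/+ from +/+, +/+ from wdr-5). Added later, the yolk covariate gave 2 in F5 mutants against either control, 0 in F5 against F4 of +/+ from wdr-5 and 0 changes between days, and omitting F5 mutant replicates 1, 4 and 5 gave 2 against either control. The cause of these shifts was not tested. Most counts here and in the next paragraph have no share of all probe sets beside them. A shift of the sarcomere genes therefore cannot be told from a shift over the whole array.

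Same-numbered arrays of different groups had deviations with r from -0.30 to 0.32 (11 of 34 pairs over 0.1). Differently numbered arrays had r from -0.36 to 0.34 (18 of 68 pairs over 0.1). The labels state no pairing, and these values cannot decide whether samples were paired. The replicate block gave 1 call in F5 against F4 of +/+ from wdr-5 and moved no other count by over 1.5 times. Leaving out single arrays gave 4 to 5 calls in F4 mutants, 3 to 5 in F5 mutants, 4 to 5 and 3 to 6 against +/+ from wdr-5, 0 to 2, 0 to 3 and 2 to 4 in F5 against F4 (+/+ from +/+, +/+ from wdr-5, mutants), and 2 to 5 changes between days in F4 mutants. The count of changes between days was 2 without F4 +/+ from +/+ replicate 2, and 3 without its replicates 4 or 5 or mutant replicate 6.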
